A study of Mus musculus with 2 samples.

Results

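The regions described here are 1379 of the 90984 peaks that the authors' caller reported for Smad4 in embryonic mouse forelimb. They are the peaks that start in 6 stretches of mm9 where peaks are crowded together: chromosome 4 from 60000001 to 62000000, where the Mup gene array lies, chromosome 5 from 11000001 to 12000000 and from 94000001 to 96000000, chromosome 7 from 15000001 to 16000000 and from 22000001 to 24000000, and chromosome 13 from 65000001 to 67000000. They are called here the Mup stretch, the first and the second chromosome 5 stretch, the first and the second chromosome 7 stretch and the chromosome 13 stretch. The stretches were chosen by the number of peaks in windows of 1 Mb, at least 100 in each of theirs, so their peak number and close spacing describe the choice and are not results. The tags, length and fold of the peaks did not enter the choice as values. They are not independent of it, since only called peaks were counted and every listed peak held at least 15 tags. How far the choice favours larger peaks was not tested.

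The list comes from 1 Smad4 ChIP library and 1 input DNA library (chromatin sequenced without immunoprecipitation). Both were made from C57BL/6 forelimbs whose age the labels give as embryonic day 12.5 and 13.5 together. Forelimb at these ages holds many cell types, and neither library is labelled as mutant or treated. With 1 library of each kind there is no replicate, so no difference below was tested. Medians are given with 95% intervals from order statistics, shares with exact binomial 95% intervals and tags of single peaks with exact Poisson 95% intervals. These cover counting error only. The sequencing depth of both libraries is unknown.

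Smad4 joins the Smads that BMP and TGF-β receptors activate, and the complexes bind DNA at short GTCT boxes, AGAC on the other strand. A tandem array is a row of gene copies made by repeated duplication. The Mup genes encode major urinary proteins, small lipocalins that the adult mouse liver secretes into urine, where they carry pheromones. In ChIP-seq, a short read from a sequence shared by several copies cannot be assigned to 1 of them, and what is done with such reads depends on the aligner and its settings. BWA is named in the submitters' processing notes, and its version and settings are not given in the sources used here.

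How alike copies within an array can be is shown by Mup promoters, whether or not they are neighbours. The gene table used here lists 22 protein-coding Mup genes on chromosome 4 in GRCm38.p6. Of the 24 protein-coding genes that run from the first of them to the last, 2 are not Mup genes. A promoter sequence was at hand for 14 of the 22. The 250 bases before the start of 4 of them are printed to show 3 near-identical copies and a more distant one. They are RefSeq sequences of GRCm38.p6, all on the minus strand, and capitals mark AGAC or GTCT. They lie at chr4:60139857-60140106 for Mup2, chr4:60421953-60422202 for Mup9, chr4:61595833-61596082 for Mup17 and chr4:62087318-62087567 for Mup3. These positions belong to another build than the peaks and cannot be set beside them, so whether a peak covers any of these promoters was not examined.
Mup2: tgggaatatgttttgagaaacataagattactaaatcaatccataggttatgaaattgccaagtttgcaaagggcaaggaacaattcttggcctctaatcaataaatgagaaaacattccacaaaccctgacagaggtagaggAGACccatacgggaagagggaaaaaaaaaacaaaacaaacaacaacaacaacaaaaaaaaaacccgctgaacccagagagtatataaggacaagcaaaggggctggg
Mup9: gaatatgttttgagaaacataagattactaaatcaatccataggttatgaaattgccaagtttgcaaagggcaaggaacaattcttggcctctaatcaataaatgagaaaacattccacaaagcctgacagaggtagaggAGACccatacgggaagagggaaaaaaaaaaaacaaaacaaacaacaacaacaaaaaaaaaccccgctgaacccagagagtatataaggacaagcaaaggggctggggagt
Mup17: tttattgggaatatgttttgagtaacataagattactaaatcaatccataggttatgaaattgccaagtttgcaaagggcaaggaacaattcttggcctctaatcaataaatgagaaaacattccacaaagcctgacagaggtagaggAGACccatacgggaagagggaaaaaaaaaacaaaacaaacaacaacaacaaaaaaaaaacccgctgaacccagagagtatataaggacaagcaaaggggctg
Mup3: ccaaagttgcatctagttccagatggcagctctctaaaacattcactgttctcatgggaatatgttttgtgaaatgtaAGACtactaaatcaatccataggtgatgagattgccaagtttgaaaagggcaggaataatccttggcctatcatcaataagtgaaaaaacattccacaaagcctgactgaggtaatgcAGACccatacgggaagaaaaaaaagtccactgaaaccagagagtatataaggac

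Mup2 and Mup9 shared 97.2% of 249 aligned bases, Mup9 and Mup17 98.4% of 244, and Mup2 and Mup17 98.0% of 248. Mup3 shared 74.4% of 234 aligned bases with Mup2. Over the 91 pairs of the 14 promoters, identity ran from 71.5% to 98.8% with a median of 89.9%, and 45 pairs reached 90%. Identity was counted over the overlap of a pair only, which was as short as 113 bases for Mup7 and Mup9 (98.2%). The median and the count mix such partial overlaps with longer ones. The longest run of bases that both promoters of a pair shared without a difference had a median of 56 bases and reached 225 bases between Mup15 and Mup19. A read lying wholly inside such a run matches both copies.

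The box AGAC (GTCT on the other strand) was in 14 of the 14 Mup promoters and in 82.9% of the 32851 promoters of the table, so its presence is common. The longer CAGAC, searched with its reverse complement and containing that box, was in 4 Mup promoters, those of Mup3, Mup4, Mup6 and Mup7, and in 42.2% of all promoters. The palindrome GTCTAGAC was in 0 of the 14 and in 0.167% of all, and the palindrome GGCGCC in 0 of the 14 and in 9.59% of all. Both strands were searched over the 250 bases before each start. These counts describe letters in that window and say nothing about binding.

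The Mup stretch held 383 peaks, 191.5 per Mb against 34.5 per Mb in the rest of chromosome 4. The first chromosome 5 stretch held 170 peaks per Mb and the second 124.5, against 32.7 in the rest of chromosome 5. The first chromosome 7 stretch held 102 peaks per Mb and the second 115.5, against 34.0 in the rest of chromosome 7, and the chromosome 13 stretch held 122, against 35.6. Together the stretches make up 10 of the 32 windows of 1 Mb in the genome with at least 100 peaks. The other 22 lie on X (13) and chromosome 14 (9). The limit falls between close values. The thinnest window inside is the one on chromosome 5 from 94000001, with 100 peaks, and the densest autosomal window below the limit is on chromosome 7 from 21000001, with 92 peaks, directly beside the second chromosome 7 stretch. The next below it, also on chromosome 7, starts at 11000001 and held 86 peaks.

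Peaks did not fill the stretches evenly. In the Mup stretch they ran from its first bin to the bin that ends at 61800000, with 5 to 36 peaks per 100 kb, and the last 2 bins of 100 kb held none. Its fullest bin, from 60500001 to 60600000, held 36 peaks, and bins at 60300001 and 61000001 dropped to 9 and 8 peaks between fuller ones. The bins at 61500001, 61600001 and 61700001, just before the empty ones, held 8, 9 and 5 peaks. The first chromosome 7 stretch was a short cluster: 52 of its 102 peaks (50.98%) lay in 2 adjacent bins from 15700001, and its other bins held 2 to 11. The chromosome 13 stretch held 9 peaks in its first 400 kb and then 7 to 23 per bin. The first chromosome 5 stretch and the second chromosome 7 stretch were more even, with 6 to 27 and 5 to 19 peaks per bin.

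**Figure D1:**
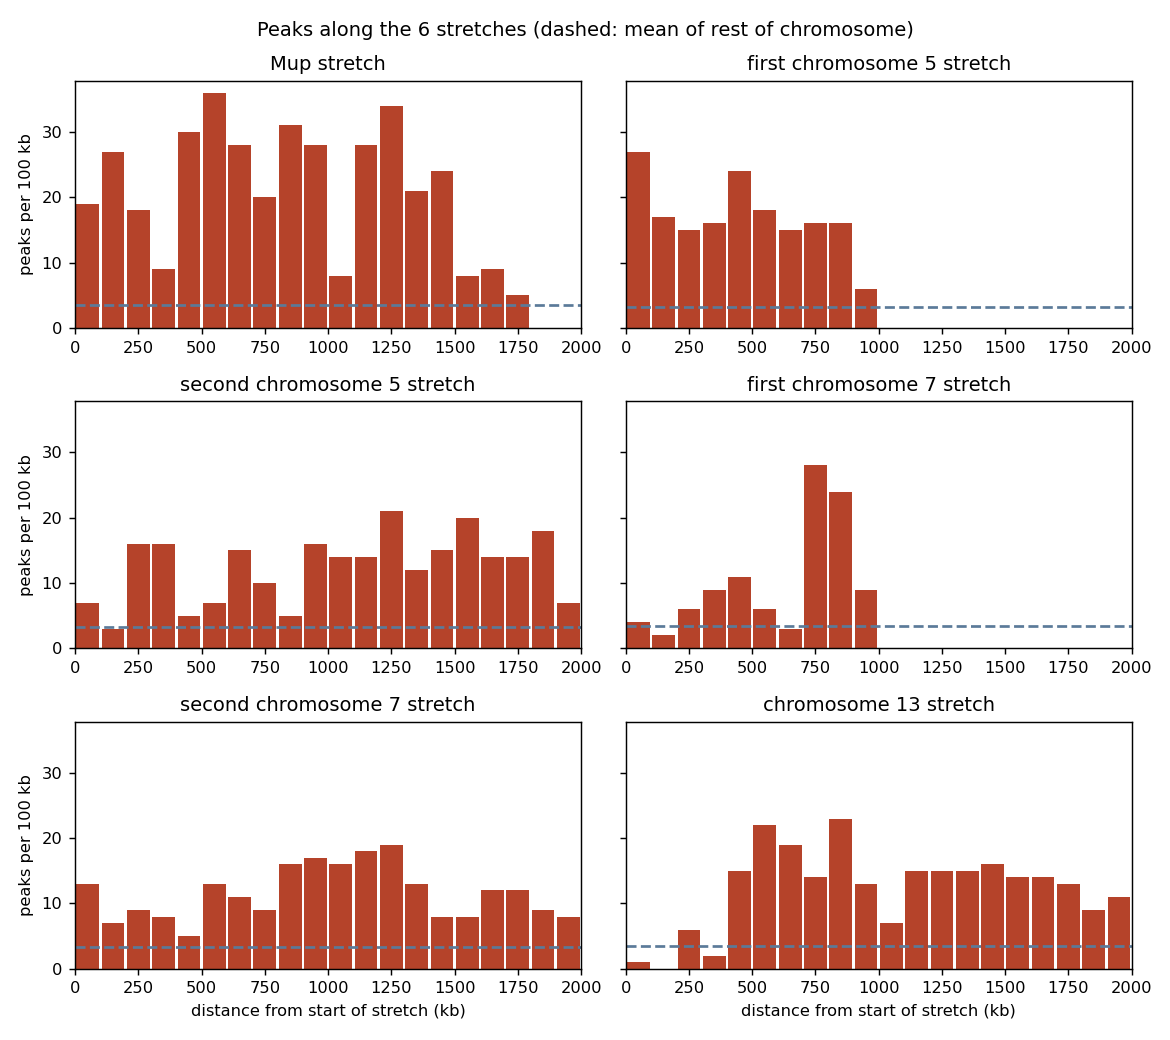
Peaks per 100 kb (bars) against distance from the start of each stretch in kb, with the mean of the rest of the chromosome as a dashed line (the first stretches of chromosomes 5 and 7 are 1 Mb long). Peaks of the Mup stretch end before its last 2 bins, and those of the first chromosome 7 stretch gather in 2 bins of 28 and 24 peaks.

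The distance between neighbouring starts followed the density. Its median was 2675 bp in the Mup stretch against 18111 bp in the rest of chromosome 4, and 5002 bp in the chromosome 13 stretch against 17321 bp in the rest of chromosome 13. It was 4357 bp in the first and 4953 bp in the second chromosome 5 stretch, against 19040 bp in the rest of chromosome 5, and 4264 bp in the first and 5434 bp in the second chromosome 7 stretch, against 16944 bp in the rest of chromosome 7. Fewer than 1000 bp separated the end of a peak from the start of the next in 140 of 382 gaps (36.6%) of the Mup stretch, against 7.76% in the rest of its chromosome. In the other stretches this share was 14.1% to 19.8%, against 8.10% to 9.15% in the rest of their chromosomes. Peaks covered 18.0% of the Mup stretch and 7.59% to 12.3% of the others, against 2.04% to 2.30% in the rest of the 4 chromosomes.

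The stretches were unlike each other in what the peaks were. In the Mup and the chromosome 13 stretch the peaks were larger and had a lower fold than in the rest of their chromosomes. In the second chromosome 7 stretch they were of ordinary size and had a higher fold than in the rest of chromosome 7. The remaining stretches lay between these.

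Tags show the difference in size. The median peak of the Mup stretch held 25 tags (95% interval 23 to 27, quartiles 17 and 38), against 16 in the rest of chromosome 4 (quartiles 15 and 19). The chromosome 13 stretch had a median of 24 tags (22 to 27, quartiles 18 and 40), against 16 in the rest of chromosome 13. In both, the upper quartile was at least 38 tags while the rest of the chromosome stopped at 19. The first chromosome 7 stretch had a median of 19 tags (17 to 20), against 16 in the rest of chromosome 7. On chromosome 5 the first stretch had 18 (17 to 19) and the second 17 (17 to 18), against 16 in the rest of chromosome 5. In the second chromosome 7 stretch the median was 16 tags (16 to 17), as in the rest of its chromosome, and 95 of its 231 peaks (41.1%, 34.7 to 47.8%) were at the list's minimum of 15 tags. At that minimum stood 47 peaks (12.3%, 9.16 to 15.98%) of the Mup stretch, against 33.6% of peaks in the rest of chromosome 4.

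Peak length ran in parallel, and these are not separate evidence, since longer peaks collect more tags. Median length was 777 bp (710 to 833) in the Mup stretch against 586 bp in the rest of chromosome 4, and 721.5 bp (673 to 808) in the chromosome 13 stretch against 585.5 bp in the rest of chromosome 13. On chromosome 7 it was 632 bp (598 to 674) in the first and 592 bp (587 to 596) in the second stretch, against 586 bp. On chromosome 5 the medians were 605.5 bp (598 to 638) in the first and 595 bp (591 to 603) in the second stretch, against 584 bp. Between peaks of a stretch, Spearman's rho of tags and length was 0.75 to 0.96 over 102 to 383 peaks of 1 library, and 0.62 to 0.67 in the rest of the chromosomes. Tags per kb of peak differed less than tags, with medians of 31.3 in the Mup stretch against 28.9, and 32.6 in the chromosome 13 stretch against 28.8. In the second chromosome 7 stretch tags per kb were lower, at 27.6 against 28.7.

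Long peaks gathered in the Mup and chromosome 13 stretches, and tag-rich peaks in these and in the first chromosome 7 stretch. The chromosome 13 stretch held 5.62% of the peaks of its chromosome, but 24 of the 34 longer than 2 kb (70.6%) and 39 of the 75 with more than 50 tags (52%). The Mup stretch held 6.87% of the peaks of chromosome 4, but 16 of the 84 longer than 2 kb (19.0%) and 45 of the 171 with more than 50 tags (26.3%). The first chromosome 7 stretch held 1.92% of the peaks of chromosome 7, but 9 of the 76 with more than 50 tags (11.8%). These were 8.82% of its peaks (4.11 to 16.1%), against 1.29% in the rest of chromosome 7. The first and second chromosome 5 and the second chromosome 7 stretch held 1.67%, 8.33% and 3.95% of such peaks, with 3.27%, 4.78% and 4.35% of all peaks. Of the peaks of the dense windows of X and chromosome 14, 4.89% were longer than 2 kb and 11.2% had more than 50 tags. The Mup stretch was close to these, with 4.18% (2.41 to 6.70%) and 11.7% (8.70 to 15.4%), and the chromosome 13 stretch was above them, with 9.84% (6.404 to 14.3%) and 15.98% (11.6 to 21.2%). The first chromosome 5 and the second chromosome 7 stretch had no peak over 2 kb among 170 and 231 peaks, and the exact intervals reach up to 2.15% and 1.58% (1.76% and 1.30% by the limit of 3 counts).

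**Figure D2:**
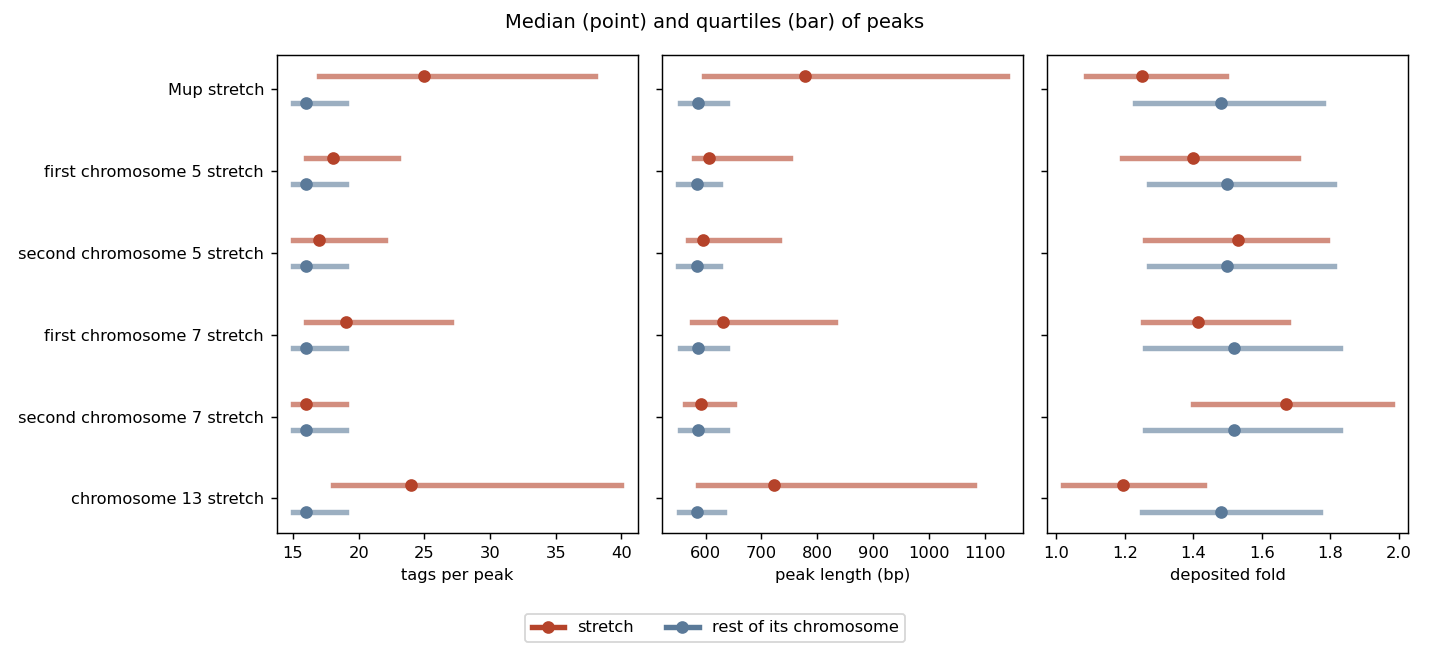
Median (points) and quartiles (bars) of tags per peak, length in bp and deposited fold for each stretch (upper of each pair) and the rest of its chromosome (lower). The Mup and chromosome 13 stretches have medians of 25 and 24 tags against 16, and the second chromosome 7 stretch has a median fold of 1.67 against 1.52.

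Fold is the authors' column. What it is measured over, and on which scale, is not stated, so it is compared only within this list. The limits called 2-fold and 3-fold below are values of this column and do not say how many times a reference was exceeded. A value below 1 is likewise not read as depletion. Its median was 1.25 (1.20 to 1.30) in the Mup stretch against 1.48 in the rest of chromosome 4, and 1.195 (1.13 to 1.25) in the chromosome 13 stretch against 1.48 in the rest of chromosome 13. The first chromosome 5 stretch had a median of 1.40 (1.34 to 1.47), against 1.5 in the rest of chromosome 5, and the first chromosome 7 stretch 1.415 (1.33 to 1.5), against 1.52 in the rest of chromosome 7. The second chromosome 5 stretch had a median of 1.53 (1.44 to 1.61), whose interval includes the 1.5 of the rest of its chromosome. The second chromosome 7 stretch had a median of 1.67 (1.57 to 1.72), above the 1.52 of the rest of its chromosome. Against the 5 Mb on either side in place of the whole chromosome, the median fold of the first chromosome 5 stretch was lower by 0.01 only. For the second chromosome 7 stretch that reference was 1.59, inside the interval of the stretch, and the difference was 0.08 (main 0.15). The references of the first chromosome 7 and second chromosome 5 stretches, 1.46 and 1.49, also lay inside their intervals. Those of the Mup and chromosome 13 stretches, 1.485 and 1.52, lay above theirs.

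The neighbouring windows of 1 Mb set these medians in place. Beside the Mup stretch, where its windows had medians of 1.23 and 1.27, the windows before and after had 1.465 and 1.45. Beside the chromosome 13 stretch, with 1.20 and 1.18 inside, they had 1.65 and 1.49. The second chromosome 7 stretch had 1.67 in each of its windows, the window before it, which held 92 peaks and narrowly missed the limit, had 1.70, and the window after it had 1.385. The higher medians there begin at least 1 window before the stretch and end with it. The first chromosome 7 stretch, at 1.415, was level with the windows before and after it, at 1.41 and 1.44. The first chromosome 5 stretch, at 1.40, lay between its neighbours, at 1.46 and 1.355. The lower medians of these stretches against their chromosomes were thus not particular to them. The windows of the second chromosome 5 stretch had 1.61 and 1.42, beside 1.53 and 1.62.

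Of all peaks in the list, 14.3% had a fold of at least 2. In the Mup stretch 22 of 383 peaks did (5.74%, 3.63 to 8.57%), against 14.7% in the rest of chromosome 4. In the chromosome 13 stretch 13 of 244 did (5.33%, 2.87 to 8.94%), against 13.7% in the rest of its chromosome. In chromosome 7, the first stretch had 6 of 102 (5.88%, 2.19 to 12.4%) and the second 57 of 231 (24.7%, 19.3 to 30.8%), against 17.6% in the rest of chromosome 7. In chromosome 5, the first stretch had 16 of 170 (9.41%, 5.48 to 14.8%) and the second 35 of 249 (14.1%, 9.99 to 19.0%), against 15.9%. The intervals of 4 stretches lay below the share in the rest of their chromosome, that of the second chromosome 7 stretch lay above it, and that of the second chromosome 5 stretch included it. The windows before and after, of 23 to 92 peaks, had 3.51% and 6.52% at the first chromosome 5 stretch. They had 6.67% and 13.6% at the first and 33.7% and 4.55% at the second chromosome 7 stretch. At the Mup stretch they had 13.9% and 20%, at the chromosome 13 stretch 16.1% and 13.3%, and at the second chromosome 5 stretch 21.7% and 21.8%.

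**Figure D3:**
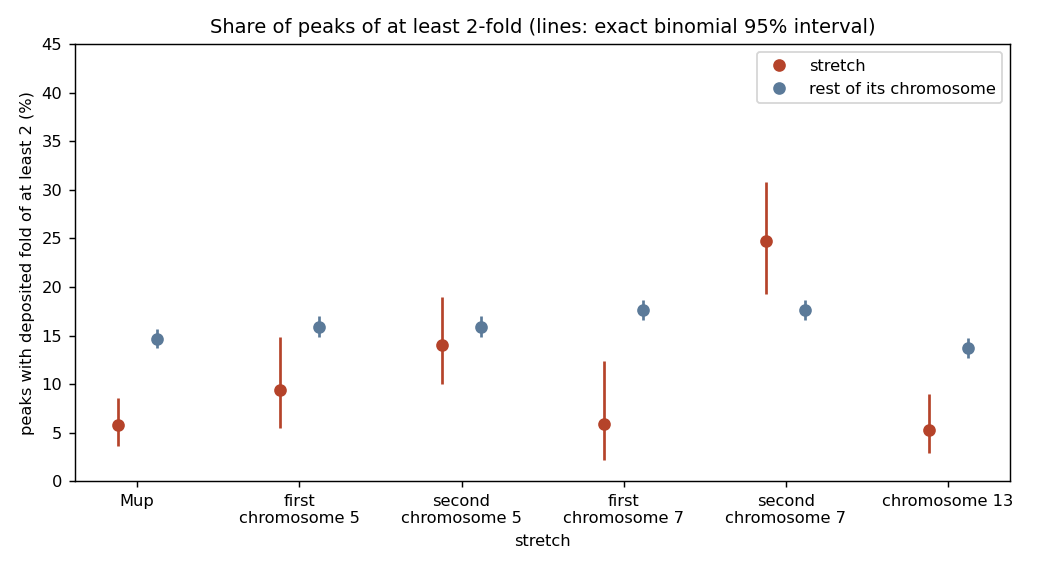
Percentage of peaks with a deposited fold of at least 2 (points) with exact binomial 95% intervals (lines), for each stretch (left of each pair) and the rest of its chromosome (right). The second chromosome 7 stretch is the highest at 24.7%, and the Mup, first chromosome 7 and chromosome 13 stretches lie between 5.33% and 5.88%.

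At the low end, a fold below 1 was given to 4.41% of all peaks in the list. It was given to 53 of 244 peaks of the chromosome 13 stretch (21.7%, 16.7 to 27.4%) and to 50 of 383 of the Mup stretch (13.1%, 9.85 to 16.8%). In the second chromosome 7 stretch 3 of 231 peaks (1.30%, 0.269 to 3.75%) had a fold below 1, and in the other stretches 2.94% to 7.84%.

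Peaks with a fold of at least 3 were 0.835% of all peaks in the list, and the stretches held 5. The Mup stretch had 0 of 383 and the first chromosome 5 stretch 0 of 170. The exact intervals of these shares reach up to 0.959% and 2.15%, and both include the share of the whole list. The simpler limit of 3 counts of the total is 0.783% and 1.76%. In the rest of chromosome 4 the share was 1.31% (1.02 to 1.66%), above the interval of the Mup stretch. In the rest of chromosome 5 it was 0.752%, within the interval of the first chromosome 5 stretch. The highest fold of the stretches was 4.17, in the second chromosome 7 stretch at 23735844 to 23736281, a peak of 438 bp with 16 tags (9.15 to 26.0). A peak of fold 3.49 lay in the first chromosome 7 stretch at 15325765 to 15326511 with 20 tags (12.2 to 30.9). The second chromosome 5 stretch had one of fold 3.44 at 94783605 to 94785012 with 48 tags (35.4 to 63.6), which also had the highest p score of that stretch, 557.38. On chromosome 13 the peaks at 65080616 to 65081407, with a fold of 3.08 and 21 tags, and at 66449142 to 66449624, with a fold of 3.03 and 27 tags, passed this limit.

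In 3 stretches the peak with most tags had a fold below the median of its stretch. The one in the chromosome 13 stretch, at 66589553 to 66595942, was 6390 bp long and held 272 tags (241 to 306) with a fold of 0.95. That of the Mup stretch, at 60151062 to 60155681, was 4620 bp long and held 185 tags (159 to 214) with a fold of 1.16. In the second chromosome 5 stretch the largest, at 95177776 to 95180247, held 99 tags (80.5 to 121) with a fold of 0.81. In the other 3 stretches the peak with most tags had a fold above the median of its stretch. In the first chromosome 7 stretch it lay at 15820842 to 15822708, with 76 tags (59.9 to 95.1) and a fold of 1.49. Its longest peak, at 15794072 to 15796228, was another, of 2157 bp with 64 tags and a fold of 1.28. At 22766189 to 22768068 in the second chromosome 7 stretch, 61 tags (46.7 to 78.4) came with a fold of 2.56, and at 11296593 to 11298283 in the first chromosome 5 stretch, 61 tags came with a fold of 2.12 and a p score of 582.4, the highest of all 6 stretches.

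The highest fold of the Mup stretch, 2.94, belonged to a small peak of 626 bp and 17 tags (9.90 to 27.2) at 60280864 to 60281489, and its highest p score, 450.63, to a peak of 51 tags (38.0 to 67.1) with a fold of 2.22 at 60621197 to 60622675. The highest p score of the chromosome 13 stretch, 474.27, was at 66353517 to 66354613, where 45 tags (32.8 to 60.2) came with a fold of 2.01. In the first chromosome 5 stretch the highest fold was 2.79, at 11782202 to 11783194 with 30 tags (20.2 to 42.8).

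In the rest of the 4 chromosomes Spearman's rho of tags and fold was 0.14 to 0.25, and fold was therefore also compared among peaks of like size. At 16 to 20 tags the median fold was 1.23 (1.18 to 1.34) in 108 peaks of the Mup stretch against 1.5 in the rest of chromosome 4. It was 1.26 (1.20 to 1.34) in 74 peaks of the chromosome 13 stretch against 1.5, and 1.70 (1.60 to 1.83) in 88 peaks of the second chromosome 7 stretch against 1.54. The differences of these stretches were thus present among small peaks of like tag number. A lower fold there was not particular to the Mup and chromosome 13 stretches. The first chromosome 5 stretch had 1.375 (1.32 to 1.48) in 70 peaks against 1.53. The first chromosome 7 stretch had 1.39 (1.26 to 1.59) in 39 peaks against 1.54. For the second chromosome 5 stretch it was 1.46 (1.35 to 1.59) in 97 peaks against 1.53. The intervals of the last 2 include the value of the rest of the chromosome. At more than 50 tags the medians of the Mup and chromosome 13 stretches had overlapping intervals, and it was the rest of their chromosomes that differed. The median fold of 45 Mup peaks was 1.16 (1.08 to 1.32), against 1.02 (0.99 to 1.12) in the rest of chromosome 4. That of 39 peaks of the chromosome 13 stretch was 1.04 (0.91 to 1.12), against 1.66 (1.43 to 1.81) in the rest of its chromosome. Within the chromosome 13 stretch rho was -0.26 over 244 peaks and in the Mup stretch -0.03 over 383, while in the first chromosome 5 stretch it was 0.45 over 170. The points share 1 library, and these values are descriptions.

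**Figure D4:**
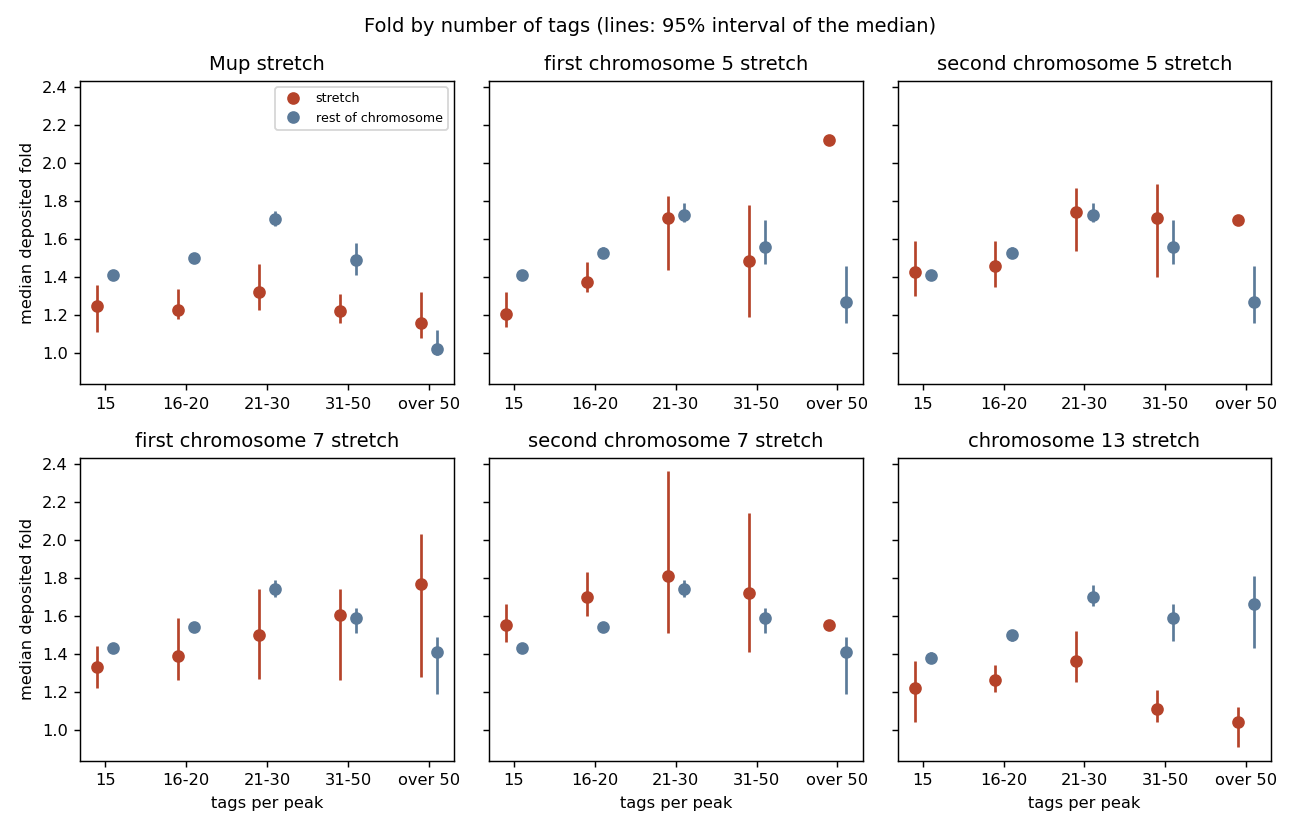
Median deposited fold (points) with its 95% interval (lines, drawn for classes of at least 6 peaks) by tags per peak, for each stretch (left of each pair) and the rest of its chromosome (right). Mup peaks lie below the rest of chromosome 4 up to 50 tags (1.23 against 1.5 at 16 to 20 tags) and above it beyond, while peaks of the chromosome 13 stretch lie below in every class.

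The deposited p-value of a peak, if it is a Poisson probability, fixes the number of tags that would be expected there. On this reading the expected tags had a median of 4.6 (4.23 to 5.12) in the Mup stretch against 2.26 in the rest of chromosome 4, and 5.29 (4.62 to 6.62) in the chromosome 13 stretch against 2.24. They were higher in the first chromosome 5 stretch, at 2.64 (2.37 to 2.88) against 2.11, and in the first chromosome 7 stretch, at 2.96 (2.68 to 3.63) against 2.14. In the second chromosome 7 stretch they were lower, at 1.73 (1.59 to 1.94) against 2.14. At exactly 15 tags, where the tag number but not the length is held fixed, the median was 3.01 in the Mup stretch against 2.11. It was 2.79 in the first chromosome 5 stretch against 2.05 and 2.57 in the chromosome 13 stretch against 2.16. On chromosome 7 it was 2.55 in the first and 1.59 in the second stretch against 2.06. The second chromosome 5 stretch had 1.92 against 2.05. Input coverage was not used here, and its part in these values was not tested. The p score itself had a median of 124.65 (119.1 to 131.6) in the second chromosome 7 stretch against 111.5 in the rest of its chromosome, and of 90.05 (84.6 to 98.5) in the chromosome 13 stretch against 105.4. In the Mup stretch it was 105.2 (98.4 to 112.6), against 107.2.

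Within a stretch, tags and fold changed from bin to bin. Among bins of 100 kb with at least 5 peaks, the median tags of the Mup stretch ran from 16.5 to 33 and the median fold from 1.06 to 1.61. The bin at 61200001, with 34 peaks, had a median of 33 tags and a fold of 1.18, and the thin bin at 61500001, with 8 peaks, had 17.5 tags and a fold of 1.61. On chromosome 13 the bin at 65600001 had a median of 41 tags and a fold of 1.11, and that at 65200001, with 6 peaks, 16 tags and a fold of 1.72. In the first chromosome 7 stretch the dense bins at 15700001 and 15800001 had medians of 20 and 31 tags, while its other bins of at least 5 peaks had 16 or 17. In the other 3 stretches the bins were more alike in tags, at 16 to 20.5 in the first and 15 to 19 in the second chromosome 5 stretch and 15 to 21 in the second chromosome 7 stretch. Thin bins hold few peaks, so their medians are imprecise.

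Regularly repeated copies could place peaks at repeated distances, and all pairs of starts within a stretch were counted by distance for this. Counts in 3 neighbouring bins of 1 kb were divided by the local mean over 15 kb on either side, for distances of 5 to 300 kb. The highest ratios were low where pairs were many. In the Mup stretch, with 24243 pairs, the highest ratio was 1.15, at 5.5 kb (348 pairs against a local mean of 304), and the next, 1.13, lay at 270.5 kb. The 5.5 kb value lies at the start of the range searched, where fewer than 15 kb remain below it for the local mean. That mean takes in distances under 1 kb, and the smallest distance between starts there was 611 bp. The second chromosome 5 stretch had its highest ratio, 1.22, at 73.5 kb (117 pairs against 95.8). At the double and the triple of that distance the ratios were 1.04 and 0.86. In the first chromosome 5 stretch the ratio reached 1.26 at 187.5 kb and 1.25 at 120.5 kb. The second chromosome 7 stretch had 1.30 at 299.5 kb, near the end of the range searched, and the chromosome 13 stretch 1.23 at 257.5 kb. The first chromosome 7 stretch had the highest ratio, 1.55 at 178.5 kb, which rests on 31 pairs (exact Poisson interval 21.1 to 44.0) against a local mean of 20.03. Each leading distance was picked as the highest of many, and pairs share peaks, so such intervals are too narrow. Keeping peaks of FDR at most 1% moved the leading distance in every stretch, and other bins moved it in 5 of the 6. In the first chromosome 7 stretch it stayed at 178.25 kb with bins of 500 bp and at 179 kb with bins of 2 kb, and moved to 288.5 kb with peaks of FDR at most 1%.

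**Figure D5:**
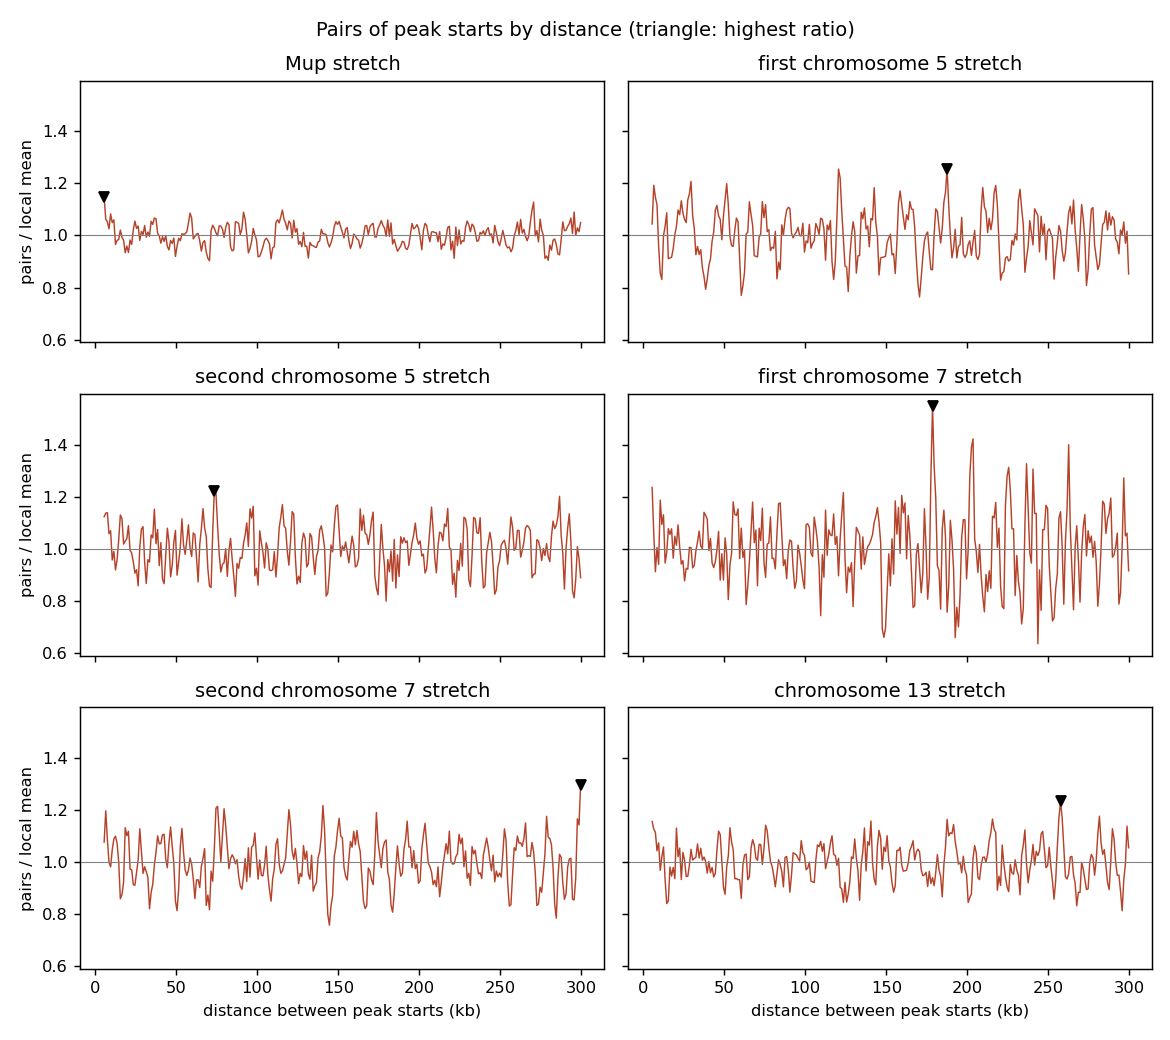
Number of pairs of peak starts in 3 bins of 1 kb over the local mean (vertical axis) against their distance in kb, for each stretch, with the highest ratio marked by a triangle. The ratio stays between 0.90 and 1.15 in the Mup stretch and reaches 1.55 in the first chromosome 7 stretch, which has the fewest pairs.

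Taken as single windows of 1 Mb, the 10 windows of the stretches had highest ratios of 1.17 to 1.62 (median 1.32), with 100 to 246 peaks each. The 22 dense windows of X and chromosome 14, with 104 to 238 peaks, had 1.14 to 1.64 (median 1.25). The 523 other windows of at least 20 peaks on chromosomes 4, 5, 7 and 13 had 1.47 to 10.3 (median 2.87), but they held a median of 34 peaks and so few pairs that their ratios are less precise. The ranges of the stretches and of the dense windows of X and chromosome 14 overlapped.

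Peaks 1 leading distance apart could not be told from other pairs by likeness in length. Lengths differed by at most 5% in 24 of 348 such pairs (6.90%, 4.47 to 10.1%) of the Mup stretch, against 9.07% of its pairs at other distances. In the chromosome 13 stretch 12 of 115 did (10.4%, 5.51 to 17.5%), against 8.10%, and in the first chromosome 5 stretch 21 of 89 (23.6%, 15.2 to 33.8%), against 19.6%. In the other 3 stretches the interval also included the share at other distances. No leading distance kept its place under every alternative tried. From starts and lengths in this list, a repeat unit was not detectable at this resolution in any of the 6 stretches.

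Set beside the 3621 peaks in the dense windows of X and chromosome 14, the stretches spanned the values found there. Those peaks had a median of 20 tags, a length of 657 bp and a fold of 1.38, with 11.3% at 2-fold or more and 9.94% below 1. The Mup and chromosome 13 stretches had larger peaks, lower folds and fewer at 2-fold or more. The second chromosome 7 stretch had smaller peaks, a higher fold and 24.7% at 2-fold or more.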

How the data were processed

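Smad4 ChIP and input DNA from forelimb were sequenced, 1 library each. The file is 1 list of peaks whose column names are those MACS writes. BWA, SICER and MACS and the build mm9 are named in the submitters' processing notes, without versions, roles or settings. Tag counts per peak, the p score (10 times the negative log10 of the p-value), the fold (a ratio, possibly transformed) and the FDR (a percentage, at most 4.99%) are as deposited by the authors. Positions are in bp and 1-based as deposited.

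Peaks were assigned to a stretch by their start. The rest of a chromosome left out its stretches. Peaks named singly are, for each stretch, those with most tags, greatest length, highest fold and highest p score, and those of at least 3-fold, a group added after the values were seen. Expected tags solve a Poisson probability for the deposited p-value. Promoters were aligned without penalty for end gaps. The members, stretches and measures were chosen with earlier results of these data known. No test was run, since each group has 1 library. Gene annotation of mm9 was not used here, so apart from Mup the stretches carry no gene names. The procedures were checked on simulated data. Biopython 1.88, scipy 1.17.1, pandas 2.3.3, matplotlib 3.10.9 and numpy 2.4.6 ran under Python 3.11.15.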

Additional observations from a re-analysis of the deposited data

How the results depend on the processing

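The alternatives were peaks of FDR at most 1%, other reference regions, merging of peaks less than 1 kb apart, peaks of 15 to 20 tags, other fold limits, lag bins of 500 bp or 2 kb, summits in place of starts, and other length tolerances. Differences are stretch minus rest of chromosome. A value counts as moved when it leaves the interval given for the stretch, and a leading lag, which has no interval, when it shifts by more than 1.5 kb.

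Of 24 alternatives for median fold, 22 stayed within the interval. The others were -0.01 for the first chromosome 5 stretch against the 5 Mb on either side (main -0.1) and -0.18 for the chromosome 13 stretch at 15 to 20 tags (main -0.285). With FDR at most 1% the difference in median tags was 14 in the Mup stretch (main 9), 0 in the second chromosome 5 stretch (main 1) and -1 in the second chromosome 7 stretch (main 0), which was also -1 against 5 Mb on either side. The difference in length was then 300 bp in the Mup stretch (main 191 bp) and 58 bp in the first chromosome 5 stretch (main 21.5 bp). Merging gave differences of 16 tags in the Mup, 16 in the chromosome 13 and 4 in the first chromosome 5 stretch, and of 428, 325, 66 and 22.5 bp in the Mup, chromosome 13, first and second chromosome 5 stretches, since merging sums neighbours. The length difference of the second chromosome 7 stretch, 6 bp, turned to -1 bp against 5 Mb on either side. Apart from merging, the cause of these moves was not tested.

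The share at a 3-fold limit was 0% in the Mup and first chromosome 5 stretches, 0.402% in the second chromosome 5, 0.980% in the first chromosome 7, 0.433% in the second chromosome 7 and 0.820% in the chromosome 13 stretch, because the limit is higher. The leading lag moved with 500 bp bins to 269.75 kb (Mup), 121.25 kb (first chromosome 5), 28.75 kb (second chromosome 5) and 53.25 kb (second chromosome 7). With 2 kb bins it moved to 285 kb (second chromosome 5) and 189 kb (chromosome 13), and with FDR at most 1% to 58.5, 287.5, 149.5, 288.5, 75.5 and 298.5 kb in the order Mup, first and second chromosome 5, first and second chromosome 7, chromosome 13. Summits moved none of the 6. The 12 alternatives for matched lengths stayed within their intervals. No paired analysis was possible because there is 1 ChIP and 1 input library. Depth is unknown, and a peak of few tags has a wide counting interval.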
